A study of Mus musculus with 6 samples.

Results

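The mitochondrial ribosomal protein genes studied here are the 74 genes whose symbol starts with Mrpl or Mrps, out of 7373 genes in the kidney expression table. They were chosen by name, with genes at 0 in control kidney 3 dropped, and none of the 74 had to be dropped for that reason. Of the 74, 45 carry a large subunit name (Mrpl) and 29 a small subunit name (Mrps). All kidneys were from adult males of the FVB/N inbred strain. The transgenic group, 3 kidney samples, carried CryAB with the R120G mutation, a chaperone variant overexpressed from the α-myosin heavy chain promoter, which drives expression in heart muscle cells, and was sampled before heart failure began. The control group, 3 kidney samples, was matched for age and sex, and its genotype is labelled only as control. In both groups, every raw column used carries the tag Pre_IRI in its name. The labels do not say whether each sample is a separate animal, so p-values cover only the spread among the samples, which may be technical. How RNA was selected is not given in the sources used here.

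Mitochondria keep their own ribosome to translate the few proteins that mitochondrial DNA encodes, all of them parts of the respiratory chain and ATP synthase. Its RNA comes from mitochondrial DNA, but every one of its proteins is encoded in the nucleus, made in the cytosol and imported. The kidney tubule, above all the proximal tubule and the thick ascending limb, is among the tissues richest in mitochondria. Inherited defects of these proteins in humans cause failure of oxidative phosphorylation, often with disease of the heart, brain, liver or kidney.

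The libraries held 28.96, 23.5 and 31.7 M estimated counts in transgenic kidneys 1, 2 and 3, and 28.05, 34.9 and 47.6 M in control kidneys 1, 2 and 3. The 178 listed genes at 0 in control 3, of which 176 lie on chromosome X, 1 on Y and 1 has no position here, were left out of the fit. Control 3 also stood apart among the remaining genes. Its score on principal component 1, which carried 51.9% of the variance, was 24.7, against scores of -12.5 to 0.71 for the other 5. Values without control 3 are given beside the family counts and many of the named genes. Markers of kidney tubule were present in every library, with 8 of 8 proximal tubule and 4 of 4 thick ascending limb genes listed, and none of 4 heart muscle markers was listed. In whole kidney tissue, fewer cells of a type and less RNA per cell cannot be told apart.

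The 74 genes were well covered. Their median estimated count per library lay between 1688 and 2219 in transgenic kidneys and between 1972 and 3594 in control kidneys, and the lowest count of any of them was 530. All 74 passed the authors' expression range in 6 of 6 samples, so no member entered through 1 group alone. RefSeq lists 78 coding genes with such symbols in GRCm38.p6. Of the other 4, the genes now called Mrpl57 and Mrpl58 stand in the table under the older symbols Mrp63 and Ict1, and Mrpl19 and Mrpl53 were not analysed here.

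Levels ranged widely between members, although the proteins are built into 1 particle. Per kilobase of transcript, the mean level over the 6 kidneys ran from 7.57 to 383 CPM per kb (CPM being counts per 1 M counts of a library), with a median of 53.03. The medians were 56.4 CPM per kb for large subunit names and 51.4 CPM per kb for small subunit names. The cytosolic ribosomal protein genes had a median of 690.2 CPM per kb and the respiratory chain and ATP synthase genes one of 489 CPM per kb, against 20.04 CPM per kb over the 7001 tested genes with a transcript length. The messages of the mitochondrial ribosome therefore stood above the typical listed gene and far below those of the cytosolic ribosome and of the enzymes it serves.

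The highest member per kilobase was Mrps21 at 383 CPM per kb (chromosome 3, 95862634 to 95871514, GRCm38.p6), which encodes a small subunit protein with a bacterial counterpart. Mrpl12 followed at 354 CPM per kb. Its protein belongs to the stalk that recruits translation factors, and it also binds the mitochondrial RNA polymerase. Mrps6, a small subunit protein, had 210.02 CPM per kb and Mrpl54, a large subunit protein found in mitochondria but not in bacteria, 209 CPM per kb. Lowest were Mrpl47 at 7.57, Mrps5 at 13.3, Mrpl1 at 13.3 and Mrpl32 at 13.5 CPM per kb. This order depends on the transcript models, since some have long untranslated ends. Per kilobase of coding sequence Mrpl12 came first and Mrps21 second, and Mrpl32 moved from rank 71 to rank 56 of 74.

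**Figure D1:**
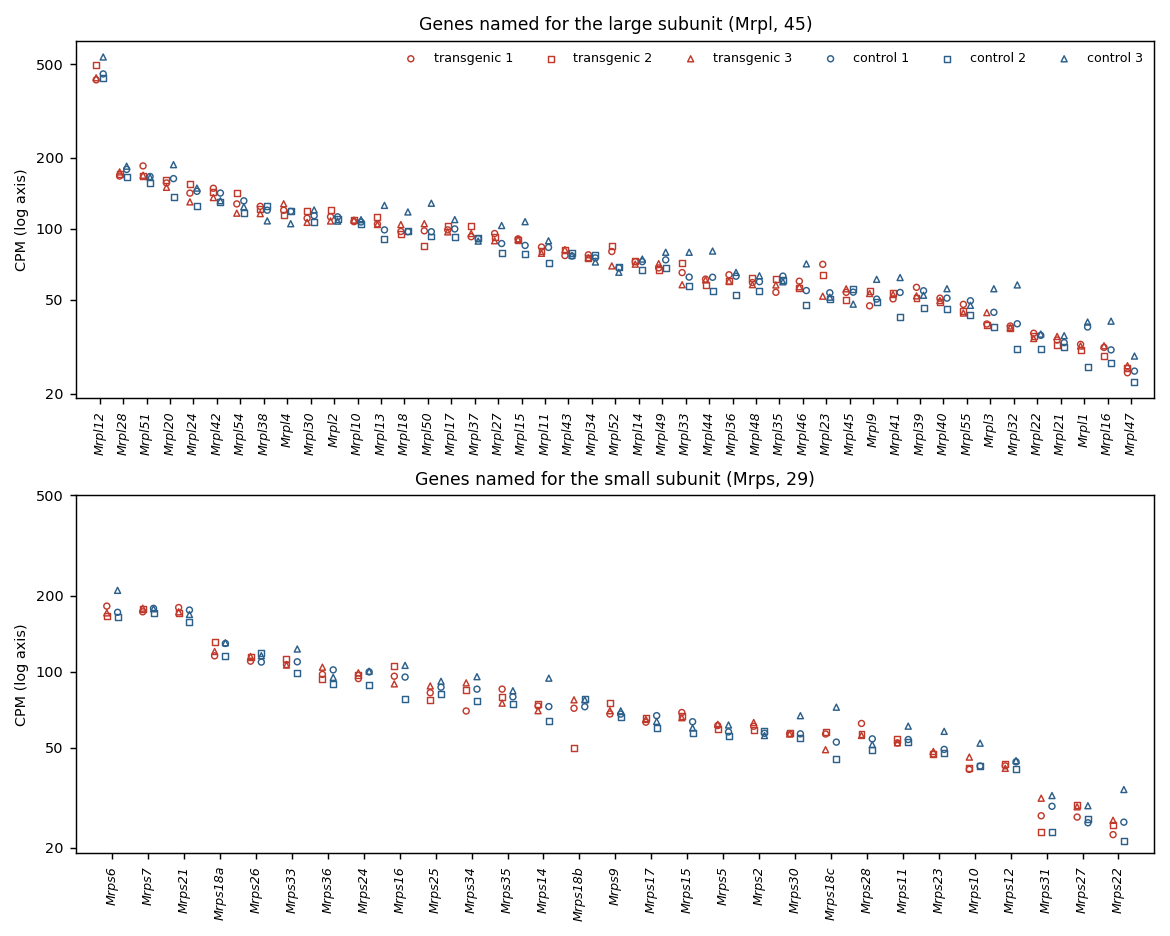
Level of each of the 74 genes (CPM, log axis) in the 6 kidneys, with transgenic kidneys in red to the left of control kidneys in blue, large subunit names above and small subunit names below, sorted by mean level. Mrpl12 stands apart at the top, and control 3 (blue triangles) is the highest point for 43 genes, while control 2 (blue squares) is the lowest for 49.

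The members are spread over 17 chromosomes, and chromosome 11 holds the most, 10. Mrpl46 and Mrps11 on chromosome 7 are the closest pair, with 41 bases between their starts on opposite strands, so a large subunit gene and a small subunit gene share 1 start region. Mrpl46 had 60.0, 55.9 and 56.8 CPM in transgenic kidneys and 54.8, 47.8 and 71.1 CPM in control kidneys. Mrps11 had 52.1, 54.1 and 52.2 CPM in transgenic kidneys and 53.8, 52.7 and 60.8 CPM in control kidneys. In both genes control 3 was the highest kidney. The span of 17 members overlaps that of another coding gene, and 4 have a named pseudogene, so reads of those members may be shared, since strand use in counting is not given in the sources used here.

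Start regions are shown because genes of the mitochondrial ribosome are known for compact promoters with sites for NRF1, ETS factors such as GABPA, and YY1, nuclear regulators of mitochondrial genes. Promoter windows from RefSeq (GRCm38.p6, 250 bases before to 50 after the start) were found for 66 of the 74 genes. Both strands were searched for GCGCANGCG (NRF1), CCGGAAG (ETS) and AANATGGCG (YY1), and matches of different motifs may overlap. The NRF1 letters were in 15 of 66 members (22.7%) and 16.9% of the 5816 tested genes with a window. The ETS letters were in 23 of 66 (34.8%) against 23.2% of those genes, and the YY1 letters in 10 of 66 (15.2%) against 6.83%. At least 1 of the 3 was in 40 of 66 members (60.6%) and in 39.9% of those genes. A match is a string of letters, not a bound site.

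The stretches below end at the base before the annotated start and run 5′ to 3′, with matched letters in capitals. They are those of the most abundant member (Mrpl12), of 3 members whose values are described further on (Mrpl52, Mrps15, Mrpl3), and of the 41 bases between Mrpl46 and Mrps11.
Mrpl12 (chr11:120484517-120484636, plus strand): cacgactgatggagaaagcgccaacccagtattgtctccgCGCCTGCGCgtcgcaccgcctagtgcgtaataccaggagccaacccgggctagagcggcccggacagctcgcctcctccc
Mrpl52 (chr14:54426789-54426908, plus strand): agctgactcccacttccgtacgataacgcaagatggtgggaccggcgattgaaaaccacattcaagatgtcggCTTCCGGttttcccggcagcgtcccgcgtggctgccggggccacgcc
Mrpl3 (chr9:105053148-105053267, plus strand): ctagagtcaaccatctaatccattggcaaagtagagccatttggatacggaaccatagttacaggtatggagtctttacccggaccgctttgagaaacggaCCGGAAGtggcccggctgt
Mrps15 (chr4:126046808-126046927, plus strand): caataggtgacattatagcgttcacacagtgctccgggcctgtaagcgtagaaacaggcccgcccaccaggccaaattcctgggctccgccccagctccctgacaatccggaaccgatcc
Mrps11 (chr7:78783090-78783130, plus strand): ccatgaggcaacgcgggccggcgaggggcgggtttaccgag
The NRF1 letters of Mrpl12 begin 80 bases before the start, and the ETS letters of Mrpl52 and Mrpl3 begin 47 and 19 bases before it. The stretches of Mrps15 and Mrps11 hold none of the 3. The full promoter window of Mrps11 does hold the YY1 letters, not within the stretch shown.

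The main comparison asked whether kidneys of mice with a heart muscle disease that had not yet led to heart failure differ in these messages. No member differed past the threshold. With the edgeR quasi-likelihood test and Benjamini-Hochberg adjustment over all 7194 genes tested, 0 of 74 members passed an adjusted p of 0.05, where 0.0139% of all genes did (1 gene, Ren1). None of the 74 had an unadjusted p under 0.05 either, against 1.82% of all genes, and DESeq2 gave 0 at both levels. The fitted log2 fold changes, transgenic over control, were above 0 in 36 and below 0 in 38 members, with a median of 0.00 (-0.003), where 50.3% of all genes were above 0. They ran from -0.19 for Mrps18b to 0.26 for Mrpl23. The medians were 0.01 for the 45 large subunit names and -0.03 for the 29 small subunit names.

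The intervals were narrow. For 73 of 74 members the 95% interval of the difference lay inside 1.5-fold in either direction, as it did for 89.6% of all genes. The exception was Mrpl32 (-0.16, 95% interval -0.62 to 0.29, log2). The median size of a member's difference, without its sign, was 0.05 on the log2 scale, against 0.07 over all genes.

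**Figure D2:**
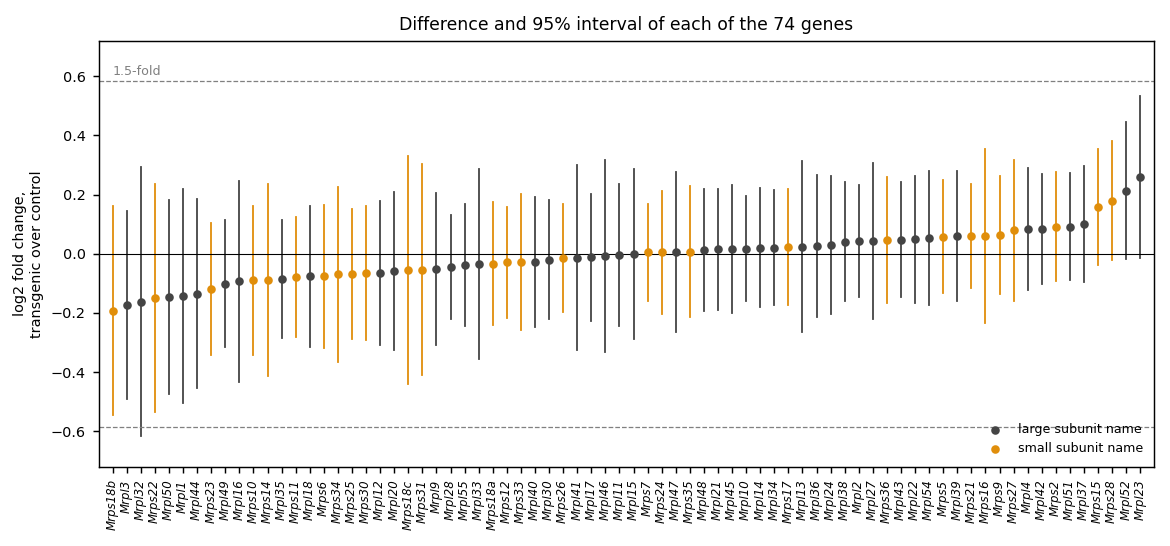
Log2 fold change, transgenic over control, of each of the 74 genes with its 95% interval from the edgeR fit, sorted from Mrps18b (-0.19) to Mrpl23 (0.26). Grey dashed lines mark 1.5-fold, which 1 interval, that of Mrpl32, crosses.

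In 6 members every transgenic kidney stood above every control kidney, which is 8.11% of members against 2.96% of all genes, and in 0 members every transgenic kidney stood below, against 3.02% of all genes. Mrpl52, a large subunit protein specific to mitochondria (chromosome 14, 54426909 to 54429750), had 80.2, 84.9 and 69.7 CPM in transgenic kidneys and 68.4, 68.7 and 65.5 CPM in control kidneys. The lowest transgenic kidney cleared the highest control by 0.94 CPM, and the log2 fold change was 0.21 ± 0.10 (SE; edgeR adjusted p = 0.997). Mrps28, a small subunit protein linked to human mitochondrial disease (chromosome 3, 8802146 to 8923857), had 62.3, 56.7 and 55.9 CPM in transgenic kidneys and 54.1, 48.95 and 51.4 CPM in control kidneys. Transgenic kidney 1 stood above the rest, and the log2 fold change was 0.18 ± 0.09 (SE; edgeR adjusted p = 0.997).

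Mrps15, a small subunit protein with a bacterial counterpart (chromosome 4, 126046928 to 126055536), had 68.8, 66.4 and 65.7 CPM in transgenic kidneys and 63.3, 57.1 and 59.8 CPM in control kidneys. The lowest transgenic kidney stood 2.36 CPM above the highest control, and the log2 fold change was 0.16 ± 0.09 (SE; edgeR adjusted p = 0.997). Mrpl37, another large subunit protein specific to mitochondria, had 92.7, 102.6 and 95.6 CPM in transgenic kidneys and 90.9, 91.5 and 88.8 CPM in control kidneys. Mrpl51, also of the large subunit, had 185, 167 and 169 CPM in transgenic kidneys and 167, 157 and 166 CPM in control kidneys. Mrps2, of the small subunit, had 60.7, 58.5 and 62.8 CPM in transgenic kidneys and 56.98, 58.1 and 55.8 CPM in control kidneys. For these 3 the log2 fold changes were 0.10, 0.09 and 0.09, and the gap between the lowest transgenic and the highest control kidney was 1.16 CPM for Mrpl37, 0.43 CPM for Mrpl51 and 0.35 CPM for Mrps2. The span of Mrpl37 overlaps that of Cyb5rl and the span of Mrps2 that of 1700007K13Rik, so their reads may be shared. Mrpl51 overlaps no other coding gene. With 1 library left out, the log2 fold change of Mrpl52 was 0.15 (without transgenic kidney 2) to 0.29 (without transgenic kidney 3). That of Mrpl37 was 0.058 without transgenic kidney 2, and that of Mrpl51 was 0.045 without transgenic kidney 1. Leaving out a library cannot turn the sign of a gene without overlap.

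The member with the smallest p-value, Mrpl23, a large subunit protein at the exit of the peptide tunnel, was named after its values were seen. It had 70.7, 63.5 and 51.8 CPM in transgenic kidneys and 53.6, 50.6 and 51.3 CPM in control kidneys (log2 fold change 0.26 ± 0.12, SE; edgeR adjusted p = 0.997). Transgenic kidney 3 fell inside the control range, so the groups overlapped, and the difference was 0.15 without transgenic kidney 1 and 0.37 without transgenic kidney 3. Mrpl23 has a named pseudogene, so its count is uncertain.

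The 4 lowest fold changes were those of Mrps18b, Mrpl3, Mrpl32 and Mrps22. Each came near 0 or passed it when 1 kidney was left out, and moved further from 0 when a different kidney was. Mrps18b had 71.6, 49.997 and 77.3 CPM in transgenic kidneys and 72.6, 77.6 and 77.3 CPM in control kidneys. Only transgenic kidney 2 was low, and without it the log2 fold change was -0.03 in place of -0.19. Without transgenic kidney 3 it was -0.32. Mrps18b is 1 of 3 paralogs of a bacterial protein that take different places in the mitochondrial ribosome. Mrps18a, whose protein sits in the large subunit despite its name, averaged 122 ± 7.96 CPM in transgenic kidneys and 125 ± 8.06 CPM in control kidneys (SD, n = 3 each). Mrps18c averaged 54.5 ± 4.77 CPM in transgenic kidneys and 56.6 ± 14.1 CPM in control kidneys (SD, n = 3 each).

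Mrpl3, a core large subunit protein whose human defects can cause cardiomyopathy (chromosome 9, 105053268 to 105077466), had 39.5, 39.1 and 44.2 CPM in transgenic kidneys and 44.3, 38.4 and 55.7 CPM in control kidneys. Control 3 was high, and without it the log2 fold change was -0.01 in place of -0.17. Without control 2 it was -0.29. Mrpl32, a large subunit protein that a membrane protease must trim before it is assembled, had 38.7, 38.1 and 38.1 CPM in transgenic kidneys and 39.6, 31.0 and 57.9 CPM in control kidneys. The transgenic kidneys were nearly alike and the controls spread widely, so the log2 fold change of -0.16 was -0.35 without control 2 and 0.12 without control 3. Mrps22, a small subunit protein specific to mitochondria, had 22.6, 24.6 and 25.7 CPM in transgenic kidneys and 25.3, 21.4 and 34.1 CPM in control kidneys. Its log2 fold change of -0.15 was 0.06 without control 3 and -0.29 without control 2. Mrpl44, a large subunit protein of the RNase III family, had 61.2, 57.9 and 60.8 CPM in transgenic kidneys and 62.4, 54.7 and 80.5 CPM in control kidneys. Its log2 fold change of -0.14 was 0.04 without control 3 and -0.25 without control 2.

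The other members chosen by role did not pass the test either. Mrpl12 had 429, 498 and 438 CPM in transgenic kidneys and 454, 437 and 536 CPM in control kidneys, a log2 fold change of -0.07 ± 0.11 (SE). It was -0.14 without transgenic kidney 2 and 0.03 without control 3. Mrpl10, its partner in the stalk, had 107, 109 and 109 CPM in transgenic kidneys and 107, 105.3 and 109 CPM in control kidneys, and had the narrowest spread within groups of all 74. Mrpl11, at the base of the stalk, averaged 81.1 ± 2.49 CPM in transgenic kidneys and 81.4 ± 8.86 CPM in control kidneys (SD, n = 3 each).

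Mrps7, of the head of the small subunit, averaged 176 ± 3.04 CPM in transgenic kidneys and 176 ± 3.99 CPM in control kidneys (SD, n = 3 each), the second narrowest spread, followed by Mrpl43. Mrps12, at the decoding centre, averaged 42.2 ± 0.865 CPM in transgenic kidneys and 43.1 ± 1.79 CPM in control kidneys (SD, n = 3 each). Mrpl45, near the tunnel exit where new proteins meet the inner membrane, averaged 53.1 ± 3.004 CPM in transgenic kidneys and 52.6 ± 4.10 CPM in control kidneys (SD, n = 3 each).

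Mrps16 and Mrps34 are small subunit proteins mutated in human mitochondrial disease. Mrps16 had 95.9, 105.2 and 89.4 CPM in transgenic kidneys and 95.2, 77.6 and 105.9 CPM in control kidneys. Mrps34 had 69.8, 84.8 and 90.3 CPM in transgenic kidneys and 85.2, 76.2 and 95.5 CPM in control kidneys, with transgenic kidney 1 the lowest. In both genes the ranges of the groups overlapped. Mrps30, now placed in the large subunit, had 56.8, 57.0 and 56.6 CPM in transgenic kidneys and 56.7, 54.7 and 66.9 CPM in control kidneys. Mrps36, now known as a part of the 2-oxoglutarate dehydrogenase complex rather than of the ribosome, averaged 98.4 ± 5.36 CPM in transgenic kidneys and 95.3 ± 6.21 CPM in control kidneys (SD, n = 3 each); it has 3 named pseudogenes.

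Control kidneys varied more among themselves in the family's summed level than the group means differed. Summed over the 74 genes, the level was 6339, 6422 and 6284 CPM in transgenic kidneys and 6351, 5911 and 6842 CPM in control kidneys. Control 2 was the lowest of 6 and control 3 the highest, with the 3 transgenic kidneys and control 1 close together between them. The means were 6349 ± 69.6 CPM in transgenic kidneys and 6368 ± 466 CPM in control kidneys (SD, n = 3 each), a ratio of 0.997. It was 1.04 without control 3 and 0.962 without control 2.

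The same order was seen gene by gene. Control 3 was the highest of the 6 kidneys in 43 of 74 members (58.1%), where it was for 34.8% of all genes. Control 2 was the lowest in 49 of 74 (66.2%), where it was for 20.5% of all genes. In 32 members (43.2%) all 3 transgenic kidneys lay between control 2 below and control 3 above, against 15.2% of all genes. The SD of log2 CPM was wider among controls than among transgenic kidneys in 59 of 74 members (79.7%), against 70.5% of all genes, with medians of 0.06 in transgenic kidneys and 0.11 in control kidneys.

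Large and small subunit names had like deviations in controls 2 and 3. The median deviation from a gene's mean over 6 kidneys was 0.09 in control 3 for both the large and the small subunit names, and -0.12 and -0.09 in control 2 (log2 scale). In transgenic kidney 3 it was -0.015 for large and 0.019 for small subunit names, and in transgenic kidney 1 0.0015 and -0.026. The ratio of the summed large to the summed small subunit level was 1.77, 1.80 and 1.71 in transgenic kidneys and 1.75, 1.74 and 1.76 in control kidneys. Both groups thus lay in 1 narrow band, with transgenic kidneys 2 and 3 at its ends.

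**Figure D3:**
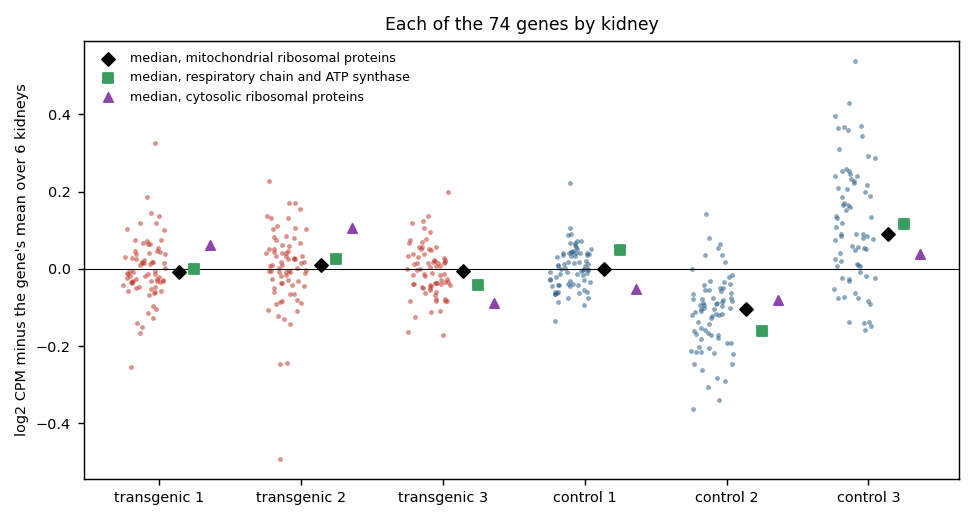
Points are the 74 genes in each kidney, as log2 CPM minus the gene's mean over the 6 kidneys, transgenic in red and control in blue, and larger symbols are medians of 3 gene families. The median of the mitochondrial ribosomal protein genes is -0.10 in control 2 and 0.09 in control 3, and between -0.01 and 0.01 in the other 4 kidneys.

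Leaving out either of these controls turned the balance of the family. With control 3 left out 58 of 74 members were above 0 (median 0.05 on the log2 scale), where 50.1% of all genes were. With control 2 left out 22 of 74 were above 0 (median -0.07), where 49.9% of all genes were. The count stayed between 34 and 39 when any other library was left out. Without control 2, Mrpl1, Mrpl3 and Mrpl32 had an unadjusted p under 0.05, all below 0, and the adjusted p was 0.578 for each (edgeR). In that setting 597 of all 7194 genes had an unadjusted p under 0.05. Without transgenic kidney 3, Mrpl23 and Mrpl52 had an unadjusted p under 0.05, as did 118 of all 7194 genes. Both were above 0, and the edgeR adjusted p was 0.9996 for both.

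**Figure D4:**
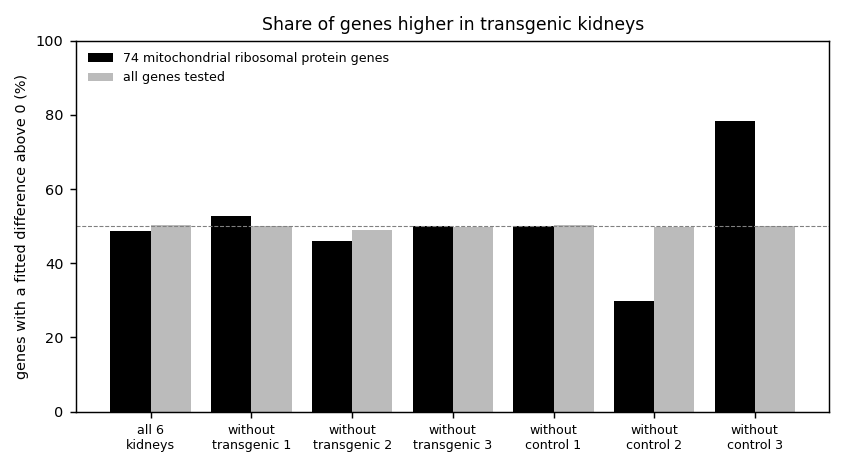
Share of genes (%) with a fitted difference above 0, meaning higher in transgenic kidneys, for the 74 genes (black) and all genes tested (grey), with all 6 kidneys and with each left out. All genes stay near 50%, while the 74 genes go to 22 of 74 without control 2 and 58 of 74 without control 3.

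The respiratory chain and ATP synthase genes, whose mitochondrial part these ribosomes supply, were likewise lowest in control 2 and highest in control 3. Their summed level was 45887, 47056 and 45266 CPM in transgenic kidneys and 48021, 41474 and 51596 CPM in control kidneys. Control 2 was the lowest kidney in 65 of these 80 genes and control 3 the highest in 46. Of the 80, 34 had a log2 fold change above 0, with a median of -0.01. Without control 3 that count was 65, and without control 2 it was 14. The 80 cytosolic ribosomal protein genes were ordered differently, with sums of 45881, 47444 and 41387 CPM in transgenic kidneys and 42563, 41805 and 46278 CPM in control kidneys. Of these 80, 60 were above 0, with a median of 0.05, and 0 passed the test. Without control 3 that count was 78, and without control 2 it was 52. The difference between the families was not tested.

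Cell type markers and base composition were read beside this order. The summed level of 8 proximal tubule markers was 13921, 14103 and 15320 CPM in transgenic kidneys and 14189, 14246 and 14236 CPM in control kidneys. Transgenic kidney 3 was the highest. The 4 thick ascending limb markers summed to 2726, 3037 and 2911 CPM in transgenic kidneys and 2853, 2965 and 3366 CPM in control kidneys, with control 3 highest here too. The 2 measured endothelium markers summed to 90.3, 79.5 and 83.8 CPM in transgenic kidneys and 79.6, 75.2 and 127 CPM in control kidneys. Control 2 was lowest and control 3 highest of 6, and 1 of the 2 genes had a log2 fold change above 0. Other lists were ordered differently. The 3 principal cell markers summed to 885, 742 and 872 CPM in transgenic kidneys and 933, 892 and 848 CPM in control kidneys. Control 3 was the lowest control there. The 5 macrophage markers summed to 241, 281 and 298 CPM in transgenic kidneys and 282, 322 and 269 CPM in control kidneys. Control 2 was the highest of 6 for these. The 3 measured adipocyte markers summed to 166, 109 and 159 CPM in transgenic kidneys and 89.6, 294 and 122 CPM in control kidneys, with control 2 highest. Whether these differences have a part in the order of the kidneys was not tested.

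The gap between control 3 and the other controls went with GC content. Across the 74 genes, the log2 level in control 3 minus the mean of controls 1 and 2 correlated with the GC content of the transcript at Pearson's r = -0.464 and Spearman's rho = -0.416, values across genes of the same 3 libraries given as a description. Over the 7001 genes with a value the Pearson's r was -0.481. In the 18 members of lowest GC content the median gap was 0.28, and control 3 was the highest kidney in 14 of them. Among the 18 of highest GC content the median gap was 0.01, and control 3 was highest in 7. Control 3 was the lowest of the 6 kidneys in 8 members (10.8%), against 32.6% of all genes. These members were Mrpl2, Mrpl4, Mrpl34, Mrpl37, Mrpl38, Mrpl45, Mrpl52 and Mrps2. Mrpl37, Mrpl52 and Mrps2 are among the 6 genes without overlap between groups. After a correction for GC content and length in each library, 37 of 74 members were above 0 and 0 passed the edgeR test.

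**Figure D5:**
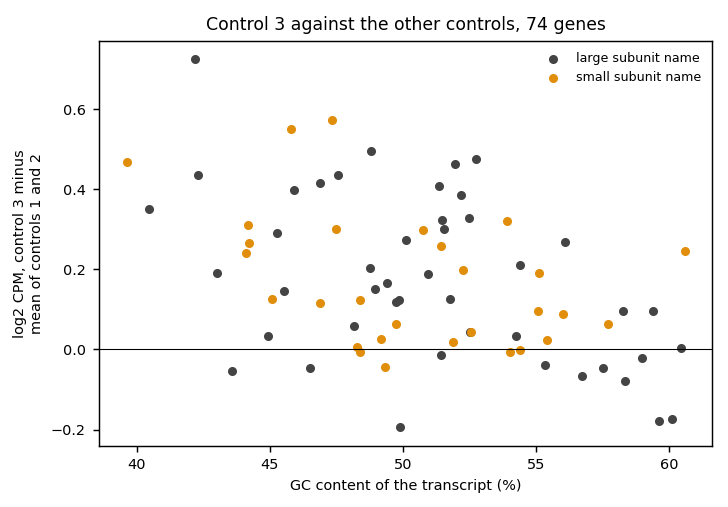
Each point is 1 of the 74 genes, with the GC content of its transcript (%) on the horizontal axis and log2 CPM in control 3 minus the mean of controls 1 and 2 on the vertical axis. The gap is larger at low GC content (median 0.28 in the 18 genes of lowest GC content) than at high GC content (median 0.01 in the 18 of highest).

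Proteins of the same ribosome that carry other symbols were read next, in a list that also holds the insertase Oxa1l. Of the 8 measured, 0 passed the test and 7 had a log2 fold change above 0, with a median of 0.10. Dap3, a small subunit protein that binds GTP, had 124, 121 and 117 CPM in transgenic kidneys and 116, 110.5 and 108 CPM in control kidneys, without overlap (log2 fold change 0.12 ± 0.08, SE; edgeR adjusted p = 0.997). Oxa1l, the insertase that receives new proteins at the inner membrane, averaged 118 ± 3.93 CPM in transgenic kidneys and 108 ± 9.67 CPM in control kidneys (SD, n = 3 each). Its log2 fold change of 0.13 was 0.071 without control 3 and 0.20 without control 1. Chchd1, at 81.2, 84.6 and 70.7 CPM in transgenic kidneys and 77.7, 73.9 and 105.9 CPM in control kidneys, was the 1 gene below 0. Its log2 fold change was -0.12, with 0.056 without control 3 and -0.22 without control 2. Chchd1 was named after its values were seen.

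No gene of the wider mitochondrial translation pathway passed the edgeR test, and none had an unadjusted p under 0.05. Of the 27 ribosome assembly genes 13 were above 0, with a median of 0.00 (-0.004). Mterfd1, a regulator of mitochondrial ribosome assembly, averaged 33.5 ± 2.68 CPM in transgenic kidneys and 39.0 ± 6.58 CPM in control kidneys (SD, n = 3 each). Its log2 fold change of -0.22 was -0.075 without control 3 and -0.31 without control 2. Mrm1, which methylates the large ribosomal RNA, averaged 13.5 ± 0.0979 CPM in transgenic kidneys and 12.1 ± 0.631 CPM in control kidneys (SD, n = 3 each).

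Of the 16 translation factors 6 were above 0, with a median of -0.03. Tars2, above 0, is counted in this list and again among the synthetases below. Pdf, which removes the formyl group from new mitochondrial proteins, had 26.05, 26.3 and 27.0 CPM in transgenic kidneys and 28.5, 28.3 and 34.4 CPM in control kidneys, without overlap (log2 fold change -0.20 ± 0.11, SE; edgeR adjusted p = 0.997). Without control 3, the highest kidney, it was -0.10, and without control 2 it was -0.25. Lactb2, a mitochondrial ribonuclease on that list, averaged 207 ± 18.0 CPM in transgenic kidneys and 251 ± 59.9 CPM in control kidneys (SD, n = 3 each). Its log2 fold change of -0.28 was -0.07 without control 3 and -0.39 without control 2. Of the 15 mitochondrial aminoacyl-tRNA synthetases, which charge the tRNAs, 7 were above 0, with a median of 0.00 (-0.005). Rars2, for arginine, averaged 42.8 ± 1.73 CPM in transgenic kidneys and 47.0 ± 1.70 CPM in control kidneys, and Tars2, for threonine, 50.6 ± 4.31 CPM in transgenic kidneys and 45.7 ± 4.43 CPM in control kidneys (SD, n = 3 each). The log2 fold change of Tars2 was 0.15, with 0.067 without control 3 and 0.20 without control 2.

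Of the 20 genes of mitochondrial transcription and RNA processing 11 were above 0, with a median of 0.02. Polrmt, the mitochondrial RNA polymerase to which the Mrpl12 protein binds, had 54.8, 54.1 and 54.1 CPM in transgenic kidneys and 47.3, 52.2 and 39.9 CPM in control kidneys. The transgenic kidneys were nearly identical and all above the controls. The log2 fold change of 0.23 ± 0.11 (SE; edgeR adjusted p = 0.997) was 0.12 without control 3 and 0.32 without control 2. Grsf1, an RNA-binding protein of mitochondrial RNA granules, averaged 169 ± 4.39 CPM in transgenic kidneys and 187 ± 19.6 CPM in control kidneys (SD, n = 3 each). Its log2 fold change of -0.15 was -0.065 without control 3 and -0.21 without control 2.

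Among regulators, 5 of the listed genes were measured and 1 was above 0, with a median of -0.12, which was -0.00093 without control 3 and -0.23 without control 2. Ppargc1a, the coactivator that promotes mitochondrial biogenesis, had 33.6, 39.1 and 38.6 CPM in transgenic kidneys and 41.7, 38.6 and 48.1 CPM in control kidneys (log2 fold change -0.21 ± 0.11, SE; edgeR adjusted p = 0.997). The groups overlapped by 1 kidney on each side, and the log2 fold change was -0.11 without control 3 and -0.28 without control 2. Esrra, a nuclear receptor that works with it, had 227, 218 and 217 CPM in transgenic kidneys and 231, 238 and 239 CPM in control kidneys, without overlap, a log2 fold change of -0.10 ± 0.07 (SE; edgeR adjusted p = 0.997).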

How the data were processed

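RNA of 3 transgenic and 3 control kidneys was sequenced on an Illumina HiSeq 2500, per the labels, with build mm10 per the submitters' processing notes. No aligner or counter is named in the sources used here. The deposited raw columns are estimated counts with decimals. The authors kept genes with an NRPKM of 5.0 to 84233.281 in 2 or more of 6 samples, per the file headers. The authors' normalized columns are log2 values (checked against the counts: log2 count minus 1 term per library and 1 per gene) and served 1 alternative. Of 24 per-sample columns, 12 matched no sample and were not used.

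Counts were rounded. The 178 genes at 0 in control 3 were left out, 1 gene was removed by filterByExpr, and 7194 were tested with the edgeR 4.0.16 quasi-likelihood test (R 4.3.3), TMM, group as the only term, two-sided, with Benjamini-Hochberg adjustment over all genes. SE is the log2 fold change over the square root of F, and intervals use 8.44 degrees of freedom. Levels are CPM with TMM library sizes. With 3 against 3, an exact permutation test cannot go below p = 0.1. Lengths and GC content are medians of GENCODE vM21 (GRCm38) transcripts linked to RefSeq. No pair of libraries was a duplicate (chi-square per degree of freedom 23.3 to 152). In simulated counts for this comparison on 7194 genes, 99.6% of 2.4-fold and 64.4% of 1.5-fold changes were recovered, and 8.79% of the calls were false. Each of the 5 runs changed 200 genes. With fewer changed genes the adjusted threshold is harder to pass, so these shares may overstate the recovery in the data. 1 marker list is not reported here.

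The members and lists were chosen with earlier results of these data known. Named genes are members without overlap between groups, the 4 highest and 4 lowest per kb, the 3 widest and 3 narrowest in spread, 16 fixed by role, and the leading genes of each pathway list; Mrpl23, Mrpl46, Mrps11, Chchd1 and the 8 members lowest in control 3 were named after their values were seen. Alternatives were DESeq2 (1.42.0) and its size factors, no and stricter filters, limma 3.58.1 with sample weights, the replicate block, all rows, 1 row per symbol, a GC and length correction, the log2 values, an adjusted p of 0.1, and leaving out each library.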

Additional observations from a re-analysis of the deposited data

How the results depend on the processing

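No member passed an adjusted p of 0.05 in any of the settings run, and the smallest adjusted p of a member was 0.548 (Mrpl52, limma with sample weights, its unadjusted p being 0.0378). With sample weights 634 of all 7194 genes had an unadjusted p under 0.05. The count called over the whole table, 1 gene (Ren1), was 2 with DESeq2 and 0 with all rows or the authors' log2 values, and ranged from 0 to 2 without 1 library. It was 2 without control 3 (Ren1 and Hba-a2) and 0 without control 1 or any 1 transgenic kidney. Members above 0 numbered 34 to 41 in all settings except without control 2 (22) and without control 3 (58), and the family median ranged from -0.07 to 0.05 without 1 library. Same-numbered kidneys did not pair (correlations of deviations 0.002, -0.02 and 0.33), and with the replicate block 0 members and 1 gene were called. Of the 74 members, 47 changed sign when 1 library was left out and 29 in some other setting. Those among the named genes follow, on the log2 scale. With sample weights Mrpl45 was -0.010, Mrpl46 0.090, Mrpl54 -0.023, Mrps18c 0.052, Mrps36 -0.012, Mrps6 0.015 and Mrps7 -0.012. With the GC and length correction Mrpl1 was 0.014, Mrpl11 0.0074, Mrpl54 -0.027, Mrps30 0.0096 and Mrps7 -0.032. Mrpl46 was 0.010 with the replicate block and 0.010 with the log2 values. The cause was not tested. Without 1 library the ranges that crossed 0 among the named genes were Chchd1 -0.22 to 0.056, Mrpl11 -0.089 to 0.065, Mrpl12 -0.14 to 0.029, Mrpl32 -0.35 to 0.12, Mrpl44 -0.25 to 0.036, Mrpl45 -0.046 to 0.062, Mrpl46 -0.13 to 0.17, Mrpl47 -0.079 to 0.11, Mrpl54 -0.022 to 0.12, Mrps16 -0.055 to 0.17, Mrps18a -0.086 to 0.0074, Mrps18c -0.20 to 0.16, Mrps22 -0.29 to 0.061, Mrps30 -0.12 to 0.028, Mrps34 -0.15 to 0.032, Mrps6 -0.14 to 0.039 and Mrps7 -0.014 to 0.019. In simulated counts with 200 changed genes per run, 64.4% of 1.5-fold changes were recovered, so changes of that size or smaller could be missed. In the data 1 gene was called. With fewer changed genes the adjusted threshold is harder to pass, so the share recovered may be lower.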
